A study of Mus musculus with 8 samples.

Results

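The mRNA levels of 10 genes of the integrated stress response were measured by RNA-seq in mouse ESCs: *Atf4*, *Atf5*, *Atf3*, *Ddit3*, *Trib3*, *Chac1*, *Ddit4*, *Sesn2*, *Stc2* and *Vldlr*. They were taken by symbol from a table of 50902 genes, and they had been selected on the measured values of the comparison described here, so their own differences between the lines are a description and carry no test. The cells were derivatives of E14, a mouse ESC line, grown in N2B27 medium with LIF and 2i, the combined inhibition of MEK and GSK3 that keeps ESCs in a ground state. ESC + F/H-BAZ2ArWT carried a Flag and HA tagged wild-type *Baz2a* transgene (WT line), and ESC + F/H-BAZ2ArΔTAM carried the same transgene without the TAM domain, the RNA-binding domain of BAZ2A (ΔTAM line). Both transgenes resisted the siRNA and had been inserted with the piggyBac transposase. Both lines were transfected with siRNA against *Baz2a* and collected 3 days later, and 4 libraries were sequenced for each, so the comparison asks which mRNA levels differ when BAZ2A lacks its RNA-binding domain. The lines came from single-cell clones and no untransfected parental cells were among the libraries, so the deletion and the clone cannot be told apart. The labels do not say that the libraries of a line came from separate cultures, and the p-values given here measure the spread between these libraries only.

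In the integrated stress response, kinases that sense amino acid shortage, unfolded proteins in the endoplasmic reticulum, double-stranded RNA or a lack of heme phosphorylate the translation factor eIF2. Bulk protein synthesis then slows, while the mRNA of the transcription factor ATF4 is translated better. ATF4 pairs with other bZIP proteins, among them C/EBP factors, and binds C/EBP-ATF response elements near genes for amino acid synthesis, amino acid transport, tRNA charging and redox balance. ATF5, ATF3 and CHOP (encoded by *Ddit3*) are further bZIP factors of the response, and the other 6 genes are known targets or effectors of it. RNA-seq reads the mRNA level alone and not the translation of *Atf4* mRNA or the phosphorylation of eIF2.

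All 10 genes had a promoter of 300 bases around the transcription start in the RefSeq table for GRCm38.p6, the same assembly as mm10, with 12 promoters in all. The C/EBP-ATF response element was searched as TGATGNAA on both strands. It was found in 4 of the 12 promoters, belonging to 4 of the 10 genes, and in 3.97% of the 32851 promoters in the table. These 4 sites are shown with the bases on either side because they are the letters through which ATF4 pairs are known to bind. Each is printed 5′ to 3′ on the strand of the gene, with the match, here to the reverse complement of the motif, in capitals.
*Chac1* (chr2:119351039-119351066, plus strand, match at position -193 from the start): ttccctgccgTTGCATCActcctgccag
*Trib3* (chr2:152344029-152344056, minus strand, match at position 15): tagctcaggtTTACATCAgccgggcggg
*Atf3* (chr1:191183426-191183453, minus strand, match at position -110): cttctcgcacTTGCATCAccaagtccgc
*Vldlr* (chr19:27216810-27216837, plus strand, match at position -200 of its second promoter): gcagcaatagTTGCATCAgcgctcctag
The match read TTGCATCA in *Chac1*, *Atf3* and *Vldlr* and TTACATCA in *Trib3*, where it lay downstream of the RefSeq start. Positions are counted from RefSeq starts, which can differ from the ends of the gene spans given below. The *Trib3* match lies upstream of its span, which begins at 152344032 on the minus strand. The *Atf3* match lies within its span, which begins at 191218039 on the minus strand. The cAMP response element TGACGTCA was in 0 of the 12 promoters and in 1.79% of all promoters. The TATA box TATAAA was in 1 of the 12, that of *Trib3* at position -166, and in 13.62% of all promoters. In the 100 bases around the start it was in 0 of the 12 and in 4.94% of all promoters. None of these matches overlapped another motif searched. A match gives the letters of the window and not binding, and the remaining promoters lack only these letters in these windows.

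The libraries held between 7.28 M and 7.71 M reads on genes in the WT line and between 6.59 M and 8.7 M in the ΔTAM line, and mitochondrial genes took 2.29% to 2.57% and 2.34% to 2.49% of them. The deposited RPKM were per kilobase of genomic gene span, introns included, and reads per gene were recovered from their steps. The steps give a total of 43.81 M to 58.08 M reads per library behind the RPKM, far above the reads on genes. An RPKM here is therefore not per M of the reads on genes. *Baz2a* itself (chromosome 10, 128091577 to 128129303) had 10.5 ± 0.529 RPKM (SD, n = 4) in the WT line and 18.3 ± 0.824 (SD, n = 4) in the ΔTAM line, for a log2 fold change of 0.79 (SE 0.046, limma, Benjamini-Hochberg adjusted p = 3.4e-05). Reads of the transgene and of the endogenous gene were not separated, so this value does not show the depletion. Of the 9002 genes that averaged at least 0.1 RPKM, 35.9% had an adjusted p under 0.05 in the limma fit of log2(RPKM + 0.1).

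Every one of the 10 genes was lower in the ΔTAM line, and in none of them did the ranges of the 2 lines overlap. A level lower in every ΔTAM library than in every WT library was found in 18.6% of the 12660 genes that averaged at least 10 reads. In the limma fit, 8 of the 10 genes passed the filter on low values and all 8 had an adjusted p under 0.05 and a lower level in the ΔTAM line, as did 16.0% of all genes tested, while 19.9% were higher. *Atf3* and *Vldlr* were under the filter, and they are given from the recovered reads, tested with limma voom. In that fit the 10 genes were again all lower with an adjusted p under 0.05, as were 21.8% of all genes tested. Since the genes had been chosen on this contrast, nothing is read from these counts. The median log2 fold change of the genes was -0.45 in the fit of RPKM and -0.59 in the fit of reads, against medians of 0.011 and -0.0027 over all genes tested. In these bulk libraries a smaller share of expressing cells and less mRNA per cell cannot be told apart.

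**Figure D1:**
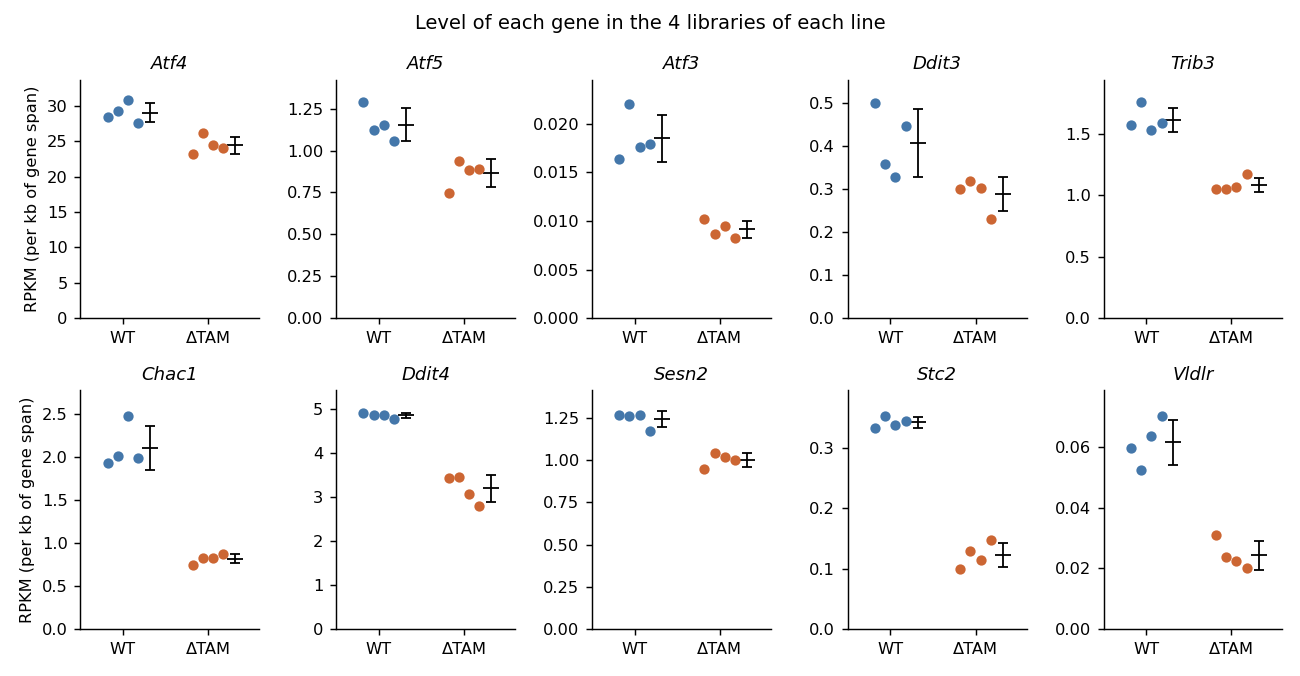
Level of each of the 10 genes in RPKM per kilobase of gene span, on axes that start at 0, with a point for each of the 4 WT libraries (blue) and 4 ΔTAM libraries (orange) and the mean ± SD in black. In each panel the lowest WT library lies above the highest ΔTAM library, by a ratio between 1.03 for *Ddit3* and 2.25 for *Stc2*.

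Among the transcription factors, *Atf4* had the highest level and the smallest difference. *Atf4*, the central activator of the response, lies on chromosome 15 from 80255184 to 80257540 on the plus strand. It had 28.4, 29.3, 30.8 and 27.6 RPKM in the WT libraries and 23.2, 26.1, 24.4 and 24.0 RPKM in the ΔTAM libraries. The lines were separated, but narrowly, since the lowest WT library was only 1.06 times the highest ΔTAM library. Its mean levels were 29.1 ± 1.38 and 24.4 ± 1.20 RPKM (SD, n = 4 each), for a log2 fold change of -0.25 with a standard error (SE) of 0.0457. With 2473 to 3560 reads per library, *Atf4* was the most deeply covered of the 10 genes.

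*Atf5* encodes a bZIP factor related to ATF4 whose mRNA is also translated better when eIF2 is phosphorylated. It lies on chromosome 7 from 44812256 to 44816658 on the minus strand. Its levels were 1.29, 1.12, 1.15 and 1.06 RPKM in the WT libraries and 0.744, 0.939, 0.886 and 0.892 RPKM in the ΔTAM libraries. WT replicate 1 was the highest of the 8 and ΔTAM replicate 1 the lowest. The log2 fold change was -0.38 (SE 0.0774) between 1.16 ± 0.0959 and 0.865 ± 0.0842 RPKM (SD, n = 4 each). *Atf5* overlaps *Nup62* by 571 bases on the opposite strand, and whether the counting used strand is not stated. *Nup62*, a nuclear pore gene, fell from 2.7 ± 0.108 to 2.32 ± 0.139 RPKM (SD, n = 4 each), for a log2 fold change of -0.21 (SE 0.047, limma adjusted p = 0.0106). The part of shared reads in the value of *Atf5* was not tested.

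*Ddit3* encodes CHOP, a bZIP factor induced by ATF4 that promotes cell death under lasting stress. It lies on chromosome 10 from 127290774 to 127296288 on the plus strand. Its levels were 0.50, 0.359, 0.328 and 0.446 RPKM in the WT libraries and 0.301, 0.319, 0.303 and 0.231 RPKM in the ΔTAM libraries. The WT libraries were scattered and WT replicate 3 lay just above the highest ΔTAM library, at 1.03 times its level. The log2 fold change of -0.38 had the largest standard error of the 8 genes in the fit of RPKM, 0.122, and in 7 of the 8 fits that left out a library its adjusted p was over 0.05. *Ddit3* overlaps *Mars* by 68 bases on the opposite strand, a gene that encodes methionyl-tRNA synthetase. *Mars* fell from 4.10 ± 0.0725 to 3.01 ± 0.0703 RPKM (SD, n = 4 each), for a log2 fold change of -0.44 (SE 0.0253, limma adjusted p = 3.4e-05), and the part of shared reads in the value of *Ddit3* was not tested.

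*Atf3*, a stress-induced bZIP factor that often represses its targets, was close to the limit of what these libraries could measure. It lies on chromosome 1 from 191170296 to 191218039 on the minus strand, a span of 47.74 kb that holds 2.15 kb of exon. The WT libraries held 39, 54, 41 and 44 reads and the ΔTAM libraries 22, 18, 24 and 23. All WT libraries were above all ΔTAM libraries, and the lowest WT level was 1.61 times the highest ΔTAM level. The log2 fold change in the fit of reads was -1.0 (SE 0.188), or 49.9% of the WT level with a 95% interval from 38.1% to 65.4%.

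The targets that act within the cell differed by log2 fold changes from -0.28 for *Sesn2* to -1.26 for *Chac1* in the fit of RPKM. *Trib3* encodes a pseudokinase that binds ATF4 and AKT and restrains the response, and lies on chromosome 2 from 152337422 to 152344032 on the minus strand. It had 1.57, 1.76, 1.53 and 1.59 RPKM in the WT libraries and 1.05, 1.05, 1.07 and 1.17 RPKM in the ΔTAM libraries. The 2 lines were apart by more than the spread within either. The log2 fold change was -0.53 (SE 0.0509) between 1.61 ± 0.0996 and 1.09 ± 0.058 RPKM (SD, n = 4 each).

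*Chac1*, also on chromosome 2 (119351229 to 119354381, plus strand), encodes an enzyme that breaks down glutathione. The WT libraries had 1.93, 2.01, 2.48 and 1.99 RPKM and the ΔTAM libraries 0.744, 0.826, 0.821 and 0.874 RPKM. WT replicate 3 stood above the other WT libraries, yet even the lowest WT library was 2.21 times the highest ΔTAM library. In the fit of RPKM the log2 fold change was -1.26 (SE 0.0823), and without WT replicate 3 it was -1.18.

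*Ddit4* encodes REDD1, an inhibitor of mTORC1 signalling, and lies on chromosome 10 from 59949669 to 59951834 on the minus strand. Its WT libraries were nearly equal, at 4.91, 4.86, 4.86 and 4.77 RPKM, whereas its ΔTAM libraries had 3.43, 3.46, 3.07 and 2.80 RPKM. The spread was therefore within the ΔTAM line, and the lowest WT library was 1.38 times the highest ΔTAM library. With means of 4.85 ± 0.060 and 3.19 ± 0.316 RPKM (SD, n = 4 each), *Ddit4* had a log2 fold change of -0.60 (SE 0.0653).

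*Sesn2* encodes Sestrin2, a leucine-binding protein that also restrains mTORC1. It lies on chromosome 4 from 132492032 to 132510501 on the minus strand. The levels were 1.27, 1.26, 1.27 and 1.17 RPKM in the WT libraries and 0.947, 1.04, 1.02 and 1.0 RPKM in the ΔTAM libraries. After *Atf4*, this was the smallest difference of the 10 genes in the fit of reads. In the fit of RPKM its log2 fold change was -0.28 (SE 0.0375), and in the fit of reads -0.31 (SE 0.0427).

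The genes for a secreted protein and a cell surface receptor were, with *Chac1*, those with the lowest share of the WT level. *Stc2* encodes stanniocalcin 2, a secreted glycoprotein, and lies on chromosome 11 from 31357307 to 31370074 on the minus strand. It had 0.334, 0.354, 0.339 and 0.345 RPKM in the WT libraries and 0.100, 0.129, 0.115 and 0.148 RPKM in the ΔTAM libraries. The lowest WT library was 2.25 times the highest ΔTAM library, the widest separation of the 10 genes. The log2 fold change was -0.99 (SE 0.064) with the pseudocount of 0.1 RPKM, which is close to the level of *Stc2* in the ΔTAM line, and -1.47 (SE 0.107) in the fit of reads.

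*Vldlr* encodes a receptor for very low density lipoprotein and reelin. It lies on chromosome 19 from 27216484 to 27254231 on the plus strand, and 10.07 kb of its 37.75 kb are exon. The WT libraries held 112, 102, 117 and 137 reads and the ΔTAM libraries 53, 39, 45 and 44. In RPKM these were 0.0597, 0.0525, 0.0636 and 0.0703 against 0.0311, 0.0236, 0.0224 and 0.0201. The lines did not overlap, and the log2 fold change in the fit of reads was -1.36 (SE 0.149).

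**Figure D2:**
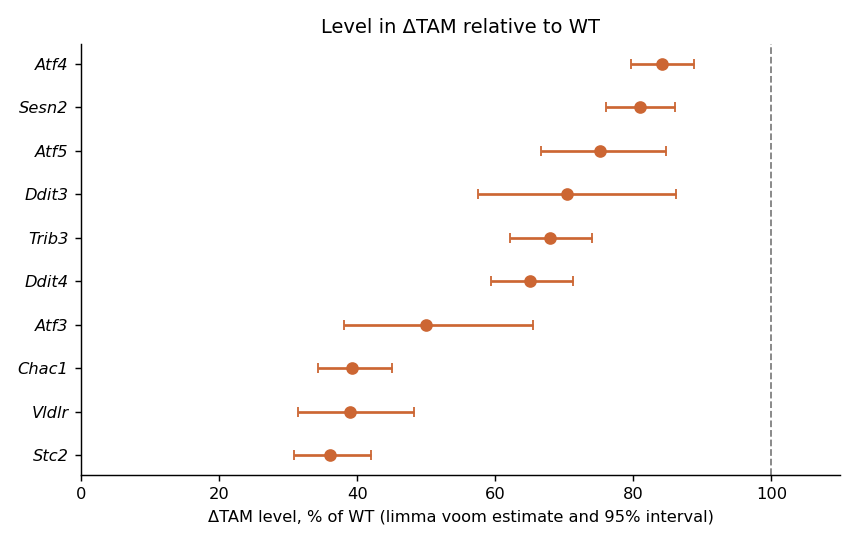
Level of each gene in the ΔTAM line as a percent of the WT line (x axis, linear), from limma voom on the recovered reads, with 95% intervals and a dashed line at 100%. *Atf4* and *Sesn2* are nearest to the WT level, at 84.1% and 80.9%, and *Stc2*, *Vldlr* and *Chac1* are farthest, between 36.0% and 39.3%.

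Put on a single scale, the fit of reads placed the ΔTAM line at 84.1% of the WT level for *Atf4* (95% interval 79.6% to 88.8%), 80.9% for *Sesn2* (76.1% to 86.0%) and 75.1% for *Atf5* (66.6% to 84.7%). *Ddit3* followed with 70.4% (57.5% to 86.2%), *Trib3* with 67.9% (62.2% to 74.0%) and *Ddit4* with 65.0% (59.4% to 71.2%). The intervals of neighbours in this order overlapped from *Atf4* to *Ddit4*, so these libraries do not settle the order of neighbours, while the intervals of *Atf4* and *Sesn2* lay above those of *Trib3* and *Ddit4*. *Chac1* was at 39.3% (34.3% to 45.1%), *Vldlr* at 38.9% (31.4% to 48.3%) and *Stc2* at 36.0% (30.9% to 42.0%), and the intervals of these 3 lay below that of *Ddit4*. *Atf3*, at 49.9%, had an interval that reached into both groups. The differences between genes were not tested. The intervals cover the spread between libraries and not the choice of the genes.

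To compare levels between genes, reads were divided by the length of exon and by the M reads on genes, which removes the effect of long introns on RPKM. *Atf4* then stood far above the others, at 194 ± 8.81 (SD, n = 4) in the WT line and 163 ± 7.37 in the ΔTAM line. *Sesn2* was second with 44.2 ± 1.56 and 35.6 ± 1.23, followed by *Ddit4* with 40.1 ± 0.413 and 26.3 ± 2.63 and *Trib3* with 33.6 ± 2.02 and 22.6 ± 1.21. *Vldlr* was the lowest in both lines, with 1.55 ± 0.192 and 0.608 ± 0.122, below *Atf3* with 2.74 ± 0.353 and 1.35 ± 0.131. Between these lay *Chac1*, *Atf5*, *Ddit3* and *Stc2*, whose WT means were 27.1 ± 3.27, 17.1 ± 1.40, 8.80 ± 1.72 and 5.67 ± 0.140. In the WT line the order of the libraries of neighbouring genes was unbroken except for *Trib3* and *Chac1*, whose ranges touched, with a lowest *Trib3* library at 31.9 and a highest *Chac1* library at 32.0. In the ΔTAM line *Chac1* (9.63 to 11.2) was ranked below *Atf5* (11.0 to 13.8), and their ranges overlapped, as did those of *Ddit4* and *Trib3*.

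**Figure D3:**
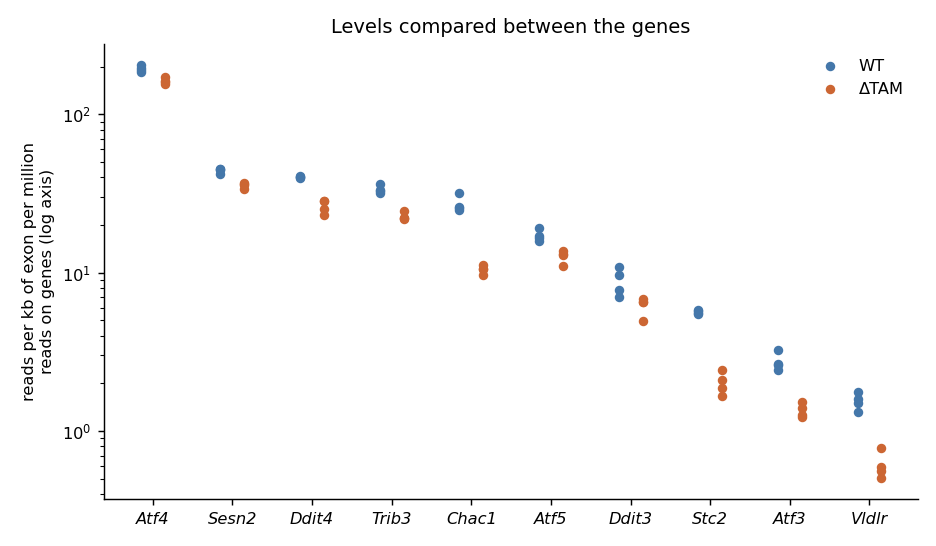
Reads per kilobase of exon per M reads on genes (log axis) for each gene, ordered by the mean of the WT line, with a point for each WT library (blue) and each ΔTAM library (orange). The levels run from 194 for *Atf4* to 1.55 for *Vldlr* in the WT means, and *Chac1* and *Atf5* change places between the lines.

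Within a line, the genes differed in how far their libraries varied, and whether this spread had a part in the choice of the genes is not known. *Ddit3* varied most among the WT libraries, with a coefficient of variation of 19.4% where counting error alone gives 9.39%, and 97.1% of 1981 genes with a like number of reads (within 1.5 times) varied less. *Chac1* was similar in the WT line, at 12.2% against a counting error of 5.48%, and 96.3% of 2810 like genes varied less. At the other end, the WT libraries of *Ddit4* varied by 1.24% and those of *Stc2* by 2.53%, below their counting errors of 4.35% and 6.73%, and 1.74% and 4.22% of like genes varied less. In the ΔTAM line the same genes varied by 9.89% and 16.6%, with 87.2% and 81.1% of like genes below them. *Atf4* varied by 4.73% and 4.92% in the 2 lines, above its counting errors of 1.70% and 1.86%.

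No library was high for all of the genes. In the WT line, replicate 1 was the highest library for 4 genes (*Atf5*, *Ddit3*, *Ddit4* and *Sesn2*) and the lowest for 3 others (*Atf3*, *Chac1* and *Stc2*), as it was for 24.3% and 21.9% of all genes tested. Replicate 4 was the lowest for *Atf4*, *Atf5*, *Ddit4* and *Sesn2*, as it was for 31.3% of all genes tested. In the ΔTAM line, replicate 2 was the highest library for 5 of the 10 genes, *Atf4*, *Atf5*, *Ddit3*, *Ddit4* and *Sesn2*, and for 27.7% of all genes tested. ΔTAM replicate 1 was the lowest for 5, *Atf4*, *Atf5*, *Chac1*, *Sesn2* and *Stc2*, against 30.4% of all genes. *Trib3*, *Chac1* and *Stc2* were highest in ΔTAM replicate 4, a library that was highest for 19.8% of all genes. The same library was the lowest for *Atf3*, *Ddit3*, *Ddit4* and *Vldlr*, and for 23.7% of all genes. With 4 libraries in a line these counts are a description.

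The rest of the pathway was read from lists of its known genes, which were drawn up with earlier results of these data known, so the pathway lists are described by their counts and medians. Of 18 genes for eIF2 kinases, their regulators, eIF2, its exchange factor eIF2B and its phosphatase subunits, 15 were tested in the fit of RPKM, and 2 rose, 3 fell and 10 did not pass the test, beside 19.9% of all genes tested that rose and 16.0% that fell. The median log2 fold change was -0.0039. *Eif2b4*, for a subunit of eIF2B, rose from 2.25 ± 0.121 to 2.59 ± 0.109 RPKM (SD, n = 4 each), for a log2 fold change of 0.20 (SE 0.0457, limma adjusted p = 0.0125). *Eif2b3*, for another subunit, rose by a log2 fold change of 0.10 (limma adjusted p = 0.0373), a call that was lost in each of the 8 fits that left out a library. *Dele1*, listed as 0610009O20Rik and known to relay mitochondrial stress to the kinase HRI, fell from 0.784 ± 0.0306 to 0.623 ± 0.0239 RPKM (SD, n = 4 each), for a log2 fold change of -0.29 (SE 0.036, limma adjusted p = 0.00079). *Impact*, an inhibitor of the activation of the kinase GCN2, fell from 1.13 ± 0.0129 to 0.945 ± 0.036 RPKM, for a log2 fold change of -0.23 (SE 0.0296, limma adjusted p = 0.00091).

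Known ATF4 targets outside the 10 genes were mostly lower in the ΔTAM line. Over the 4 lists of such targets, 37 of the 44 genes tested fell, 3 rose and 4 did not pass the test, where 16.0% of all genes tested fell and 19.9% rose. In the fit of reads, 41 of 47 fell and 3 rose, where 21.8% of all genes fell. Of 13 genes of amino acid synthesis and the carbon metabolism beside it, 11 fell and 1 rose, with a median log2 fold change of -0.52. *Aldh18a1*, which catalyses the first step of proline synthesis, fell from 1.05 ± 0.0284 to 0.541 ± 0.0141 RPKM (SD, n = 4 each), for a log2 fold change of -0.84 (SE 0.0282, limma adjusted p = 3e-06). *Pck2*, the mitochondrial phosphoenolpyruvate carboxykinase, fell from 2.55 ± 0.133 to 1.45 ± 0.106 RPKM, for a log2 fold change of -0.78 (SE 0.0561, limma adjusted p = 8e-05). *Got1*, the cytosolic aspartate aminotransferase, was the gene that rose, by a log2 fold change of 0.15 (SE 0.0313, limma adjusted p = 0.00733).

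Of 10 amino acid transporter genes 8 were tested, of which 6 fell, 0 rose and 2 did not pass the test, with a median of -0.37. *Slc7a5* and *Slc3a2* encode the light and heavy chains of the LAT1 transporter of large neutral amino acids. They fell together, from 2.76 ± 0.0432 to 1.86 ± 0.0655 RPKM and from 3.60 ± 0.0839 to 2.45 ± 0.0764 RPKM (SD, n = 4 each), each by a log2 fold change of -0.54 (SE 0.0295 and 0.0299, limma adjusted p = 2.9e-05 and 3e-05). All 12 aminoacyl-tRNA synthetase genes on the list of ATF4 targets, which does not hold every synthetase, fell, by log2 fold changes between -0.60 and -0.24 and with a median of -0.37. *Nars*, the synthetase for asparagine, fell from 6.99 ± 0.128 to 4.59 ± 0.188 RPKM (SD, n = 4 each), for a log2 fold change of -0.60 (SE 0.0332, limma adjusted p = 3e-05). *Sars*, the synthetase for serine, fell from 3.22 ± 0.0817 to 2.16 ± 0.126 RPKM, for a log2 fold change of -0.55 (SE 0.0432, limma adjusted p = 0.0001).

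Of 14 other ATF4 targets 11 were tested, of which 8 fell and 2 rose, with a median of -0.22. *Nupr1*, a small stress-induced chromatin protein, fell from 2.16 ± 0.0769 to 1.25 ± 0.0519 RPKM (SD, n = 4 each), for a log2 fold change of -0.74 (SE 0.0376, limma adjusted p = 2.2e-05). *Herpud1*, of the degradation pathway of the endoplasmic reticulum, fell by a log2 fold change of -0.61 (SE 0.051, limma adjusted p = 0.00013). The 2 that rose were *Cdkn1a*, the cell cycle inhibitor p21 and also a p53 target, and *Map1lc3b*, of the autophagosome. *Cdkn1a* rose from 4.78 ± 0.213 to 7.27 ± 0.148 RPKM (SD, n = 4 each), for a log2 fold change of 0.60 (SE 0.0352, limma adjusted p = 3.6e-05), and *Map1lc3b* by 0.23 (SE 0.0344, limma adjusted p = 0.00179).

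**Figure D4:**
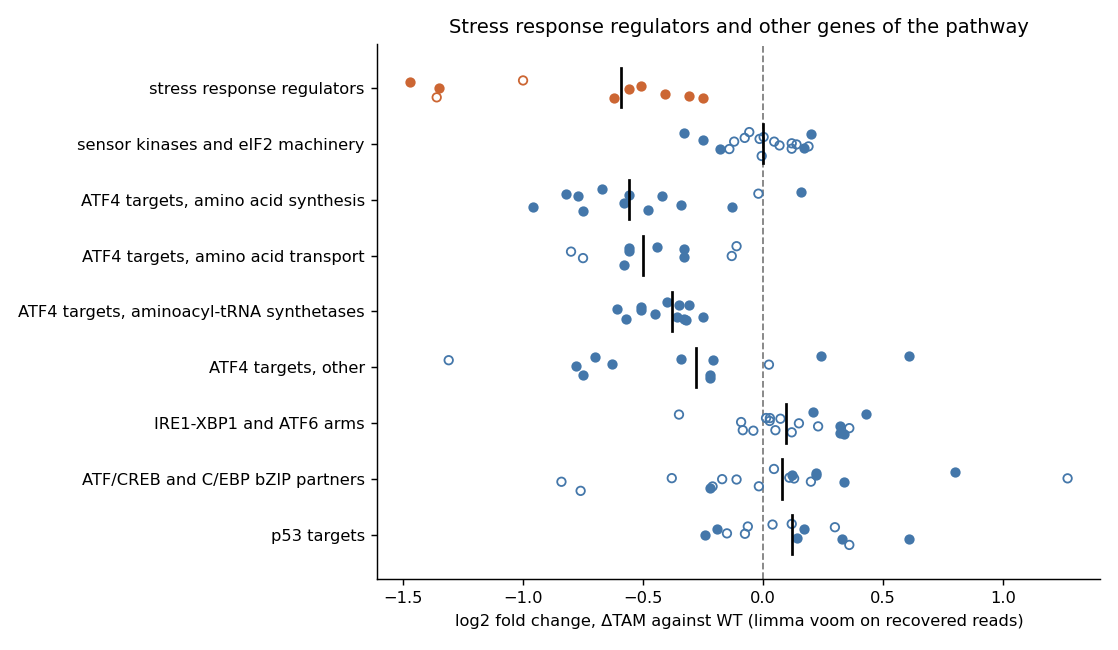
Log2 fold change of ΔTAM against WT from limma voom on recovered reads (x axis), with a point for each gene of the regulators and of the pathway lists drawn that averaged at least 10 reads and a black bar at the list's median; filled points had an adjusted p under 0.05 in the fit of log2 RPKM and open points did not or were under its filter. The medians of the 10 genes and of the ATF4 target lists lie between -0.59 and -0.28, and those of the other 4 lists drawn lie between -0.0012 and 0.12.

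Of 18 genes of the IRE1-XBP1 and ATF6 arms, the other arms of the unfolded protein response, 16 were tested, of which 5 rose, 0 fell and 11 did not pass the test, with a median log2 fold change of 0.081, beside shares of 19.9% rising and 16.0% falling over all genes. In the fit of reads 8 of 18 rose and 1 fell, where 21.8% of all genes rose and 21.8% fell. *Hspa5*, the chaperone BiP of the endoplasmic reticulum, rose from 9.81 ± 0.581 to 13.2 ± 0.352 RPKM (SD, n = 4 each), for a log2 fold change of 0.42 (SE 0.0447, limma adjusted p = 0.00037). *Calr*, the chaperone calreticulin, rose from 17.1 ± 0.466 to 21.7 ± 1.07 RPKM, for a log2 fold change of 0.34 (SE 0.0393, limma adjusted p = 0.00056). Whether the lists differ from each other was not tested.

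Among 22 genes listed as bZIP partners, of the ATF/CREB, C/EBP and related families, 12 were tested. Of these 5 rose, 1 fell and 6 did not pass the test, beside the same shares over all genes of 19.9% and 16.0%. Their median was 0.072. Not every gene on the list encodes a bZIP protein, so the counts are those of the list. *Junb* rose by a log2 fold change of 0.61 (SE 0.13, limma adjusted p = 0.00859) on at most 107 reads per library, and *Mafg* by 0.33 (SE 0.0254, limma adjusted p = 0.0001). *Cebpg*, a partner of ATF4, was the gene that fell, by -0.19 (SE 0.0494, limma adjusted p = 0.022), with overlapping ranges and a call that 5 of the fits without a library lost.

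*Sesn2* and *Ddit4* are also known as p53 targets, so p53 targets were read beside them. Of 13 genes, *Trp53* included, 12 were tested, of which 4 rose, 2 fell and 6 did not pass the test, with a median of 0.075 and the same 19.9% and 16.0% over all genes. Besides *Cdkn1a*, *Mdm2*, which encodes the ubiquitin ligase of p53, rose by a log2 fold change of 0.29 (SE 0.0451, limma adjusted p = 0.00208). *Ccng1*, a cyclin G gene, fell by -0.24 (SE 0.028, limma adjusted p = 0.00056), and *Eda2r*, of the TNF receptor family, by -0.13 (limma adjusted p = 0.0447), with a call that 7 of the fits without a library lost.

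The libraries carried the markers of ESCs. The summed level of 9 ESC markers ran from 88.3 to 90.8 RPKM in the WT line and from 75.3 to 81.1 RPKM in the ΔTAM line, so it moved in the same direction as the 10 genes. *Nanog* had 19.5 ± 0.105 and 19.9 ± 0.944 RPKM (SD, n = 4 each), *Pou5f1* 18.5 ± 0.717 and 17.7 ± 0.738 RPKM, *Zfp42* 4.64 ± 0.0929 and 4.66 ± 0.124 RPKM and *Tfcp2l1* 4.10 ± 0.079 and 4.02 ± 0.0695 RPKM, differences that did not pass the test (adjusted p from 0.304 to 0.915, limma). *Sox2*, *Klf4*, *Tbx3* and *Esrrb* fell, by log2 fold changes of -0.42, -0.39, -0.41 and -0.20 (adjusted p = 6.8e-05, 4.5e-05, 8e-05 and 0.00176 from limma), and *Prdm14* rose by 0.13 (limma adjusted p = 0.0219), a call that 5 of the fits without a library lost. Fibroblast markers summed to at most 0.131 RPKM in any library, with 3 of 8 at 0 in every library and *Pdgfrb* the highest. Of 8 primitive endoderm markers, 7 were under 0.1 RPKM, and the sum ran from 0.410 to 0.426 in the WT line and from 0.217 to 0.262 in the ΔTAM line. Most of this was *Lama1*, a laminin gene, which fell by a log2 fold change of -0.76 (SE 0.0342, limma adjusted p = 1.3e-05). Primed epiblast and early lineage markers summed to 1.31 to 1.38 RPKM and 0.833 to 1.10 RPKM, with *Nes* lower by a log2 fold change of -0.75 (SE 0.0751, limma adjusted p = 0.00029). Trophoblast markers summed to 1.59 to 1.68 RPKM and 1.51 to 1.87 RPKM. Among them *Tfap2c* rose by 0.19, and *Eomes* and *Krt18* fell by -0.26 and -0.44 with overlapping ranges (adjusted p = 0.0109, 0.0359 and 0.0433 from limma). The calls of *Eomes* and *Krt18* were lost in 6 and 7 of the 8 fits without a library, both also without the filter, and that of *Eomes* with the replicate block. The part of these shifts in the levels of the 10 genes was not tested.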

How the data were processed

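PolyA-selected RNA of 8 libraries was sequenced as single-end reads on a NovaSeq per the labels, while the study's methods name a HiSeq and give several read lengths. The authors removed ribosomal reads, trimmed (Trimmomatic 0.36 in the submitters' processing notes, which also name FastQC, STAR and DESeq2), mapped to mm10 with STAR, computed exon coverage per gene and deposited RPKM per library. The annotation release, use of strand and handling of reads with several hits are not given in the sources used here, so close paralogs and overlapping genes are uncertain. Among 51288 entries, 231 symbols with more than 1 entry were reduced, leaving 50902 genes. Of these genes, 94.5% matched a GENCODE vM21 symbol on the same chromosome. Multiplied by gene span, at least 99.56% of the deposited RPKM values above 0 were whole multiples of 1 step per library within 0.1 read, which gave the reads, so at 0.1 RPKM a gene of 10 kb has about 50.2 reads. Precision is limited by these reads, and intervals from them cover counting error and the spread between libraries.

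Libraries were grouped by their labels. The main fit was limma 3.58.1 (R 4.3.3; Python 3.11.15 for tables and figures), lmFit and eBayes with a trend on log2(RPKM + 0.1) for genes that averaged at least 0.1 RPKM, without covariates, with Benjamini-Hochberg adjustment over all 9002 genes; fold changes on this scale understate low genes. limma voom with median-ratio scaling was run on the reads of the 12660 genes that averaged at least 10. Both were tested on reads simulated for this comparison in which 200 genes differed by 1 on the log2 scale: 97.4% were recovered with 10 false calls among 8994 genes in the fit of RPKM, and 99% with 11 false calls among 12662 genes in voom. Genes named are the 10 regulators, *Baz2a*, the ESC markers and, from each other list, up to 2 genes with the largest increase and 2 with the largest decrease among those with an adjusted p under 0.05, or else the gene with the highest level. Another gene under this rule, and the list that holds it, are not reported here. *Mars* and *Nup62*, which overlap a regulator, were added after their values were seen. The 10 regulators, the lists and the tests were chosen with earlier results of these data known. Alternatives changed the pseudocount, filter, scaling, eBayes settings, block and libraries, and for the motif the window. Voom without each library and with the block were added after the data were seen.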

Additional observations from a re-analysis of the deposited data

Results flagged for a closer look

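In 3 of the 22 groups of 4 libraries examined for the 10 genes and *Baz2a*, 1 library stood apart from the other 3 by a gap over the range that was above Dixon's critical value at the 95% level, which chance exceeds in about 1 of 20 such groups. *Chac1* had 2.48 RPKM in WT replicate 3, above the other WT libraries by 0.843 of the range. *Sesn2* had 1.17 RPKM in WT replicate 4, below the other WT libraries by 0.884 of the range, and that library was also the lowest of its line for *Atf4*, *Atf5* and *Ddit4*. *Trib3* had 1.17 RPKM in ΔTAM replicate 4, above the other ΔTAM libraries by 0.839 of the range. The ranges of the 2 lines do not overlap for these 3 genes, so leaving out a library could not turn their direction in RPKM.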

How the results depend on the processing

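Each of the 10 genes was lower in the ΔTAM line under each alternative that gave it a value, which for *Atf3* and *Vldlr* were the fit without the filter and the voom fits alone. Since the ranges of the lines do not overlap, leaving out a library could not turn a direction in the fit of RPKM. *Ddit3* and *Stc2* had no value with the filter at 1 RPKM. Of 234 alternative values for the 10 genes, 225 stayed on the same side of the threshold and the other 9, all of *Ddit3*, passed above an adjusted p of 0.05 (0.0966 without the filter, 0.0882 with the replicate block and 0.053 to 0.0976 over 7 fits without a library). The size of low genes followed the pseudocount: from 0.01 to 1 RPKM the log2 fold change went from -1.42 to -0.26 for *Stc2*, -1.35 to -0.77 for *Chac1*, -0.48 to -0.13 for *Ddit3*, -0.42 to -0.21 for *Atf5*, -0.56 to -0.32 for *Trib3* and -0.31 to -0.16 for *Sesn2*. In the fit of RPKM without the filter, *Atf3* was at -0.12 and *Vldlr* at -0.38, against -1.0 and -1.36 in the fit of reads. Of all genes, 3228 were called, against 992 with a filter at 1 RPKM, which leaves fewer genes, 5528 with voom on reads and 2619 to 3054 without a library. Calls among the 10 genes ran from 7 to 8 without a library. Same-numbered libraries of the lines deviated together weakly (correlations 0.024 to 0.062), and the other pairs ran from -0.061 to 0.027. Among the WT libraries, only replicate 3 correlated best with a library of another number, ΔTAM replicate 1 (0.026). These weak correlations do not settle whether the numbers pair the libraries. The replicate block gave 7 calls among the 10 genes and 2797 over all genes. With the filter at 1 RPKM, the list of amino acid synthesis had 6 lower calls, other ATF4 targets 4, bZIP partners 1 higher and 0 lower, eIF2 machinery 1 higher and p53 targets 1 lower. With voom, the IRE1-XBP1 and ATF6 arms had 8 higher and 1 lower and bZIP partners 3 lower. Without the filter, bZIP partners had 2 lower and p53 targets 1 lower. Quantile scaling gave 1 higher for eIF2 machinery, 1 lower for the IRE1-XBP1 and ATF6 arms and 2 higher for p53 targets, and the replicate block 1 higher for eIF2 machinery and 0 lower for bZIP partners. Without a library the lists ran from 1 to 2 higher for eIF2 machinery, 0 to 1 lower for the IRE1-XBP1 and ATF6 arms, 0 to 1 lower for bZIP partners and 2 to 4 higher and 1 to 3 lower for p53 targets. The causes were not tested. *Zfp42*, with a log2 fold change of 0.0045, changed sign with quantile scaling (-0.022) and without WT replicate 1 or 2 or ΔTAM replicate 4, within a range of -0.012 to 0.017 over the fits without a library. *Pou5f1* passed the threshold with quantile scaling (-0.12, adjusted p = 0.019 from limma). Of the 651 alternative values for named list genes, 600 kept their side of the threshold, 46 lost the call and 4 reversed. In the 100 bases around the start, 1 of the 10 genes and 1.32% of all genes held the C/EBP-ATF response element, against 4 and 4.51% in the whole window. Depth limits *Atf3* most, with 18 to 54 reads per library.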
